A study of Mus musculus with 24 samples.

Results

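The renin-angiotensin genes described here are 7 of the 23998 genes in the polyA expression table of a mouse heart study: Agt, Ace, Cma1, Agtr1a, Agtr2, Mas1 and Agtrap. They were taken by name, with earlier results of these data known. Hearts came from 13 mice on a CD1 background, each with a transgene of human MYL2, the gene of the ventricular regulatory light chain of myosin, and all were taken at 4 months of age. The 4 groups were mutant hearts given an AAV9 virus with the M7.8L shRNA (shRNA hearts, 4 libraries), mutant hearts given an AAV9 control virus without that shRNA (control virus mutants, 3), mutant hearts without virus (untreated mutants, 3) and hearts with the normal human allele given control virus (wild type, 3). Virus was injected into the jugular vein at 3 days of age. The labels' genotype field reads RLC-47K L6 for every sample, so mutant and wild type were taken from sample names, and no source used here names the promoter that drives the transgene. Each library is 1 heart, and p-values measure the spread between these hearts.

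In the renin-angiotensin system, angiotensinogen (Agt) is cut by renin to angiotensin I, which angiotensin-converting enzyme (Ace) or the chymases of mast cells turn into angiotensin II. Angiotensin II acts mostly through the type 1 receptor (Agtr1a in rodents), which couples to G proteins of the Gq and G12 families, raises vascular tone and promotes growth and fibrosis in the heart. The type 2 receptor (Agtr2) and the receptor Mas (Mas1), which binds angiotensin-(1-7), oppose many of these effects, and Agtrap codes for a protein that binds the type 1 receptor and promotes its internalisation.

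The promoters of 3 members are shown because Agt and Agtrap were low in mutant hearts without shRNA, where Ace was high relative to other genes. Each is 300 bases, 250 before the start of the gene to 50 after it, from RefSeq on build GRCm38.p6, 5′ to 3′ on the strand of the gene. Capitals mark the TATA box core TATAAA or its reverse complement TTTATA, the GC box core GGGCGG and the E-box CACGTG, each searched on both strands, and the foremost pair of GC box cores in Ace overlaps. The Agt window lies at chr8:124569657-124569956 on the minus strand, the Ace window at chr11:105967698-105967997 on the plus strand and the Agtrap window at chr4:148088015-148088314 on the minus strand.
Agt promoter: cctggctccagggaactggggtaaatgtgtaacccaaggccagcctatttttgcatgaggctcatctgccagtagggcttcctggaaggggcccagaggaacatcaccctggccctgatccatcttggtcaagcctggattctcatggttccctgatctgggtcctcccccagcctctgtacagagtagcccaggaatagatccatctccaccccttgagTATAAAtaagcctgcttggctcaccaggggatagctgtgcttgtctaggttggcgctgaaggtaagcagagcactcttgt
Ace promoter: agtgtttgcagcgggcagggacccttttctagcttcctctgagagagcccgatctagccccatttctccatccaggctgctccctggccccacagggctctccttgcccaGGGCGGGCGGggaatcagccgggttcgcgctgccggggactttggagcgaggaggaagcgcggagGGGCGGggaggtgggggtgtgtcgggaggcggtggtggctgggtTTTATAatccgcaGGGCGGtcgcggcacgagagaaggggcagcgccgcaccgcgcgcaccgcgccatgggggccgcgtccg
Agtrap promoter: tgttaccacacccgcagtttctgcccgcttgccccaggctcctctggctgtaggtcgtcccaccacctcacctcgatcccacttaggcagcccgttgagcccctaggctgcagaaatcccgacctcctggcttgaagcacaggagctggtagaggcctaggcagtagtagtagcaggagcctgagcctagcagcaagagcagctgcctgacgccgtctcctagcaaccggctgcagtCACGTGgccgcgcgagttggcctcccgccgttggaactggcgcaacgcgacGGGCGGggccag
Agt has a TATAAA that begins 30 bases before its start, and Ace has TTTATA beginning 31 bases before its start with 4 GC box cores. Agtrap has an E-box beginning 13 bases before its start and a GC box core 38 bases after it. Of 32851 mouse promoter windows of this length, 13.62% hold TATAAA, 35.66% GGGCGG and 7.15% CACGTG on either strand, so each motif is common and a match is only a description. The table held windows for 6 of the 7 members, with 2 for Ace.

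The values are FPKM, fragments scaled by transcript length and by mapped fragments. The libraries differed in scale, with a median log2 shift from -0.54 in untreated mutant replicate 10 to 0.80 in shRNA replicate 8, so differences are given as deposited and after alignment of the library medians ("aligned"). Library shRNA replicate 8 stood apart from its group: Six3, at most 0.0913 FPKM in shRNA replicates 5 to 7 and 0.0791 in wild type, was 60.6 FPKM in replicate 8 and 13.6 to 27.6 FPKM in the mutants without shRNA. The row hMyl2, named for the human gene, was 228.8 to 419.6 FPKM in shRNA replicates 5 to 7 and listed at 0 in replicate 8 and the other 9 libraries, so it gives no check of a knockdown, and the groups were kept as labelled. By Ddx3y, shRNA replicate 8, all control virus mutants, untreated mutant replicate 11 and wild-type replicate 4 were female and the rest male, so sex moved with the comparison of shRNA and control virus. Results are given without replicate 8 as well. That leaves only male shRNA hearts against only female control virus mutants, so sex and treatment cannot be told apart between those groups. All 10 cardiomyocyte markers were above 0 in each group, and 4 to 6 of 7 lung markers were at 0 throughout a group.

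Among the 5 members with a mean of at least 1 FPKM, Agt, Agtr1a, Agtrap and Cma1 were higher in shRNA hearts than in control virus mutants, and Agtr1a was lower in both mutant groups without shRNA than in wild type. Differences were tested by limma on log2(FPKM + 1) over 12980 genes, called at a Benjamini-Hochberg adjusted p under 0.05, and folds are taken from the same scale, which understates changes of low genes. Between shRNA and control virus, 4 of the 5 members passed where 35.0% of all genes did, 33.4% higher, so many genes moved with them. Aligned, the same 4 passed against 24.1% of genes, and without shRNA replicate 8, with only males against only females, all 5 passed against 48.1%. Between shRNA and untreated mutants, Agt, Agtr1a, Agtrap and Cma1 passed against 54.8% of genes. Aligned, Agt, Ace, Agtr1a and Agtrap passed (29.1%), and without replicate 8 all 5 did (49.4%).

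Between control virus mutants and wild type, Agtr1a was the only one of the 5 to pass (9.50% of genes). Aligned, Ace and Agtr1a passed (24.3%), and without shRNA replicate 8 Agt and Agtrap passed as well (39.6%). Between untreated mutants and wild type, Agtr1a and Agtrap passed (20.7%). Aligned, Ace joined them (25.8%), and without replicate 8 Agt did too (39.7%). Between shRNA hearts and wild type, Cma1 alone passed where 0.108% of genes did, which is 14 genes, none passed aligned (0.0847%), and Agt and Cma1 passed aligned without replicate 8 (5.66%). Between control virus and untreated mutants, 0 members passed by limma, as deposited (0.00% of genes, with 572 genes at an unadjusted p under 0.05), aligned (0.00%, with 1296) or aligned without replicate 8 (0.0462%). The mutant and shRNA comparisons share libraries, so their opposite signs are not independent.

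**Figure D1:**
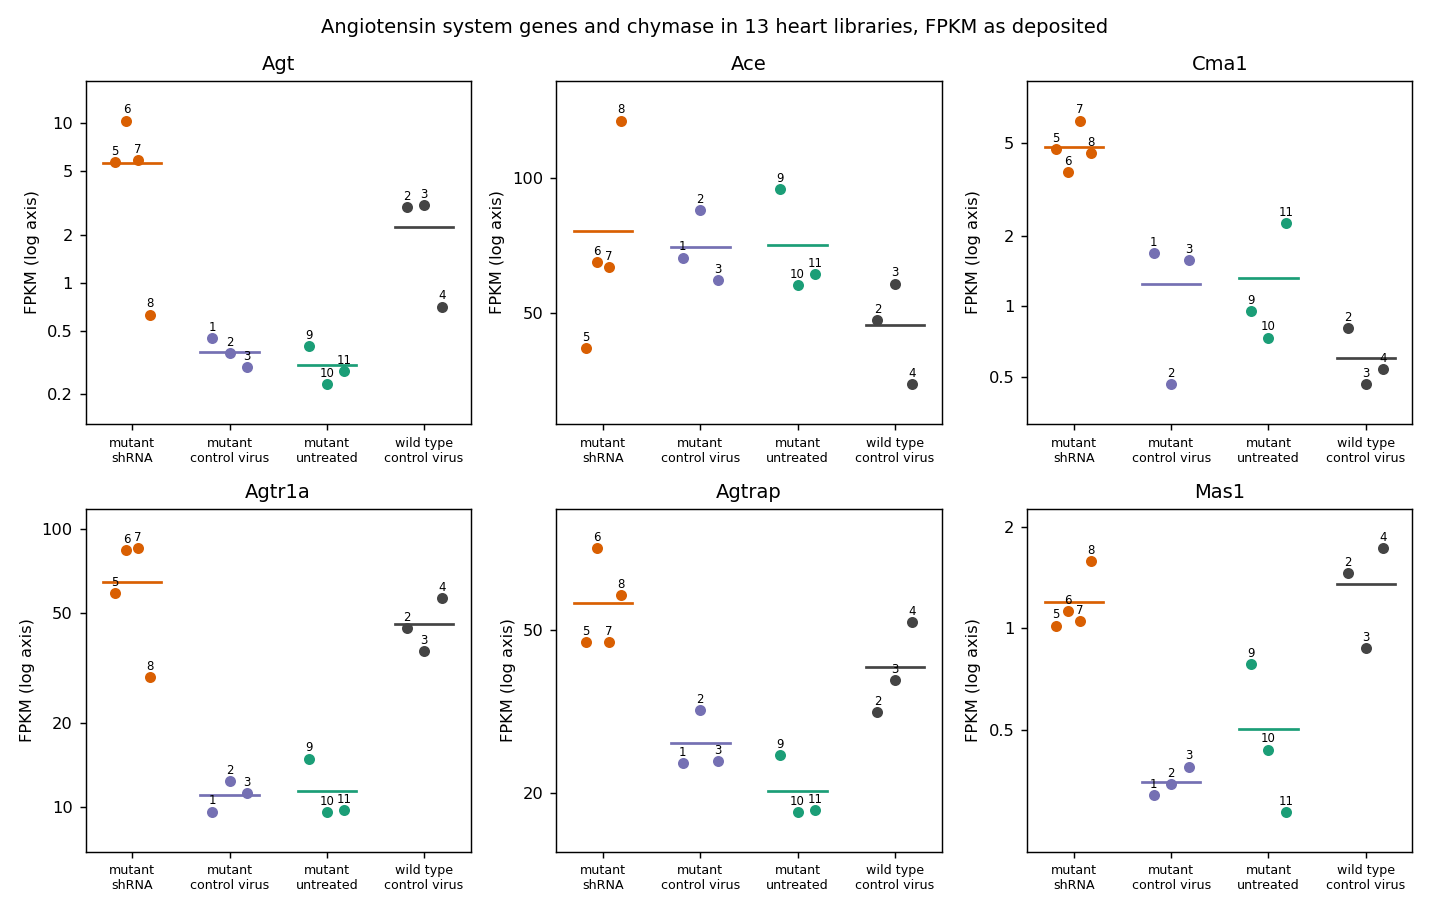
FPKM as deposited (log axis) of Agt, Ace, Cma1, Agtr1a, Agtrap and Mas1 in each of the 13 libraries. Points are libraries with their replicate number and bars are group means. Agtr1a is at 9.58 to 14.9 FPKM in the 6 mutants without shRNA and at 29.2 FPKM or more in every other library, with shRNA replicate 8 the lowest of those.

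**Figure D2:**
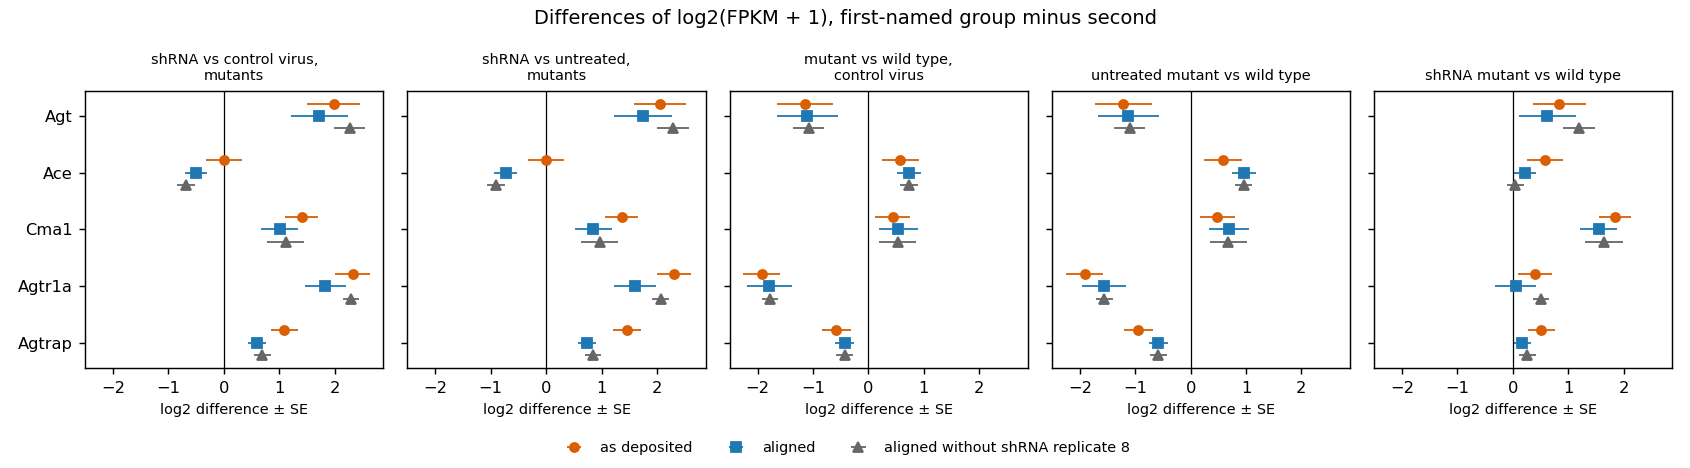
Difference of mean log2(FPKM + 1) ± SE for the 5 tested members in 5 comparisons, first-named group minus second, as deposited, aligned, and aligned without shRNA replicate 8. Agtr1a is above 0 in both comparisons of shRNA with other mutants and below 0 in both comparisons of mutants with wild type, while the position of Ace changes with alignment.

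Angiotensinogen, the precursor of all angiotensins, was high in shRNA hearts and near the low end of the scale in the other mutants. Agt was 5.69, 10.4, 5.86 and 0.631 FPKM in shRNA replicates 5, 6, 7 and 8, against 0.446, 0.363 and 0.296 FPKM in control virus mutants 1, 2 and 3. It was 0.399, 0.230 and 0.279 FPKM in untreated mutants 9, 10 and 11, and 2.97, 3.05 and 0.708 FPKM in wild type 2, 3 and 4. As deposited, every mutant without shRNA lay below every shRNA and wild-type library, with shRNA replicate 8 and wild-type replicate 4 near the mutants. Aligned, shRNA replicate 8 at 0.363 FPKM lay among the control virus mutants, at 0.332 to 0.509, and the untreated mutants, at 0.333 to 0.421. Agt rose 3.95-fold in shRNA hearts against control virus mutants (adjusted p = 0.00511, aligned 3.30-fold, 0.0340) and 4.16-fold against untreated mutants (adjusted p = 0.00213, aligned 3.35-fold, 0.0268). With sex as a covariate the rise against control virus mutants no longer passed (adjusted p = 0.0663).

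Agt did not pass between control virus mutants and wild type (log2 difference -1.14, SE 0.51, adjusted p = 0.165) or between untreated mutants and wild type (-1.21, SE 0.51, adjusted p = 0.0993). With aligned libraries and shRNA replicate 8 left out of the shared spread, both passed (adjusted p = 0.00954 and 0.00826). In shRNA hearts against wild type it did not pass (0.84, SE 0.48, adjusted p = 0.340) but did aligned without replicate 8 (2.29-fold, adjusted p = 0.0297). By mean the order was shRNA 5.65 ± 3.99, wild type 2.24 ± 1.33, control virus mutants 0.368 ± 0.0756 and untreated mutants 0.303 ± 0.0872 FPKM (SD, n = 4, 3, 3 and 3). The first 2 and the last 2 groups of this order overlapped. In bulk tissue, fewer cells of a type and less RNA per cell cannot be told apart.

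Angiotensinogen is made mainly in the liver, and some liver markers moved with it. Alb, for albumin, was 1.26, 13.4, 4.77 and 0 FPKM in shRNA replicates 5 to 8, at most 0.0660 in control virus mutants and 0.177 in untreated mutants, and 2.71, 66.3 and 0.251 in wild type. Wild-type replicates 2 and 3 thus had 2.97 and 3.05 FPKM of Agt at very different levels of Alb. The 13 liver markers summed to 12.6 to 49.3 FPKM in shRNA hearts, 3.78 to 19.5 in control virus mutants, 6.38 to 7.37 in untreated mutants and 11.2 to 175.6 in wild type, and Apoc3, Fga and Fgb were listed at 0 in every mutant library without shRNA. The sum did not always follow Agt: control virus mutant 2 had 19.5 FPKM with 0.363 of Agt, and shRNA replicate 5 had 12.6 with 5.69. Of 9 markers tested, 1 rose and 0 fell between shRNA and control virus, where 33.4% of all genes were higher, and aligned 0 passed. Against wild type 2 fell in control virus mutants and 2 in untreated mutants, where 7.35% and 19.2% of all genes were lower. The part of these markers in the Agt values was not tested.

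Low values of Agt, Cma1 and Mas1 rest on few reads. FPKM of low genes fell on whole multiples of a step in each library, and the smallest whole numbers of fragments that match these steps within 0.15 fragments, for values under 15, are given as estimates; their common multiples cannot be told apart from them. The worth of 1 fragment spanned 4.92-fold, from untreated mutant 11 to shRNA replicate 6. Agt came to about 44, 53, 36 and 4 fragments in shRNA replicates 5 to 8, 3 to 6 in control virus mutants, 3 to 7 in untreated mutants and 35, 25 and 5 in wild type. Thus shRNA replicate 8, wild-type replicate 4 and all other mutants have 7 fragments or fewer. Cma1 came to 10 to 20 fragments in shRNA hearts, 2 to 17 in control virus mutants, 5 to 30 in untreated mutants and 2 to 5 in wild type.

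Angiotensin-converting enzyme, which is anchored on endothelial cells and makes angiotensin II, was the member whose differences depended most on the scale. Ace was 41.8, 64.9, 63.2 and 134.1 FPKM in shRNA replicates 5 to 8, against 66.5, 84.7 and 59.2 FPKM in control virus mutants. It was 94.4, 57.9 and 61.1 FPKM in untreated mutants and 48.3, 58.2 and 34.7 FPKM in wild type. All groups overlapped as deposited, except that wild type lay below control virus mutants. Aligned, Ace was 45.3, 45.3, 50.5 and 77.3 FPKM in shRNA replicates 5 to 8, 74.8 to 77.4 in control virus mutants, 84.0 to 99.6 in untreated mutants and 32.5 to 55.7 in wild type. On this scale shRNA replicates 5 to 7 lay in the wild-type range and replicate 8 lay among the control virus mutants.

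As deposited, Ace passed in 0 of the 6 comparisons by limma: the log2 difference was 0.00 (SE 0.32, adjusted p = 1) between shRNA and control virus and 0.58 (SE 0.34, adjusted p = 0.305) between control virus mutants and wild type. Aligned, it rose 1.66-fold in control virus mutants (adjusted p = 0.0314) and 1.94-fold in untreated mutants (adjusted p = 0.0131) against wild type. It fell 1.66-fold in shRNA hearts against untreated mutants (adjusted p = 0.0201). Against control virus mutants its aligned difference of -0.51 (SE 0.20) did not pass (adjusted p = 0.0815). Without shRNA replicate 8, with only males against only females, it fell 1.60-fold (adjusted p = 0.00347).

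A ratio within a library does not depend on its scale, so Ace was set against Agtr1a and against Pecam1, a gene of the endothelium. The ratio to Agtr1a holds the differences of both genes and is no separate measure of Ace. In control virus mutants against wild type, as deposited, the log2 difference was -1.93 for Agtr1a and 0.58 for Ace, which did not pass. Ace per Agtr1a was 0.713, 0.773, 0.743 and 4.59 in shRNA replicates 5 to 8, against 6.91, 6.83 and 5.27 in control virus mutants. It was 6.33, 6.04 and 6.30 in untreated mutants and 1.10, 1.61 and 0.618 in wild type. The mutants without shRNA lay above all shRNA and wild-type libraries, with shRNA replicate 8 the nearest to them. The ratio was 6.11-fold higher in control virus mutants (exact permutation p = 0.1, two-sided) and 6.04-fold higher in untreated mutants (exact permutation p = 0.1) than in wild type, and 3 against 3 allows no p below 0.1. In shRNA hearts its log2 difference was -2.43 from control virus mutants (exact permutation p = 0.0571, smallest possible 0.0286) and 0.19 from wild type (exact permutation p = 0.914). In shRNA hearts against untreated mutants it was -2.41 (exact permutation p = 0.0571). These 5 p-values are unadjusted.

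By mean Ace was ordered shRNA 76.0 ± 40.1, untreated mutants 71.1 ± 20.2, control virus mutants 70.1 ± 13.2 and wild type 47.1 ± 11.8 FPKM (SD, n = 4, 3, 3 and 3), with neighbours in that order overlapping except the last pair. Ace per Pecam1 averaged 0.554 ± 0.162 in shRNA hearts, 1.04 ± 0.148 in control virus mutants, 1.06 ± 0.209 in untreated mutants and 0.518 ± 0.138 in wild type (SD, n = 4, 3, 3 and 3). Aligned, the 14 endothelial markers summed to 823 to 912 FPKM in shRNA hearts, 648 to 760 in control virus mutants, 660 to 855 in untreated mutants and 857 to 870 in wild type. Of these 14 markers, aligned, 6 rose in shRNA hearts against control virus mutants, where 11.9% of all genes were higher. Aligned, 5 fell in each of the mutant groups without shRNA against wild type, where 11.7% (control virus) and 13.8% (untreated) of all genes were lower. Ace is also known in activated fibroblasts and macrophages. The 12 fibroblast markers summed, aligned, to 2433 to 4253 FPKM in shRNA hearts, 4824 to 5591 in control virus mutants, 4671 to 4845 in untreated mutants and 2213 to 2703 in wild type. The 11 macrophage markers in the table summed to 459 to 1895, 1403 to 2116, 1299 to 1722 and 548 to 576 FPKM in the same order. The part of these cells in the Ace values was not tested.

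**Figure D3:**
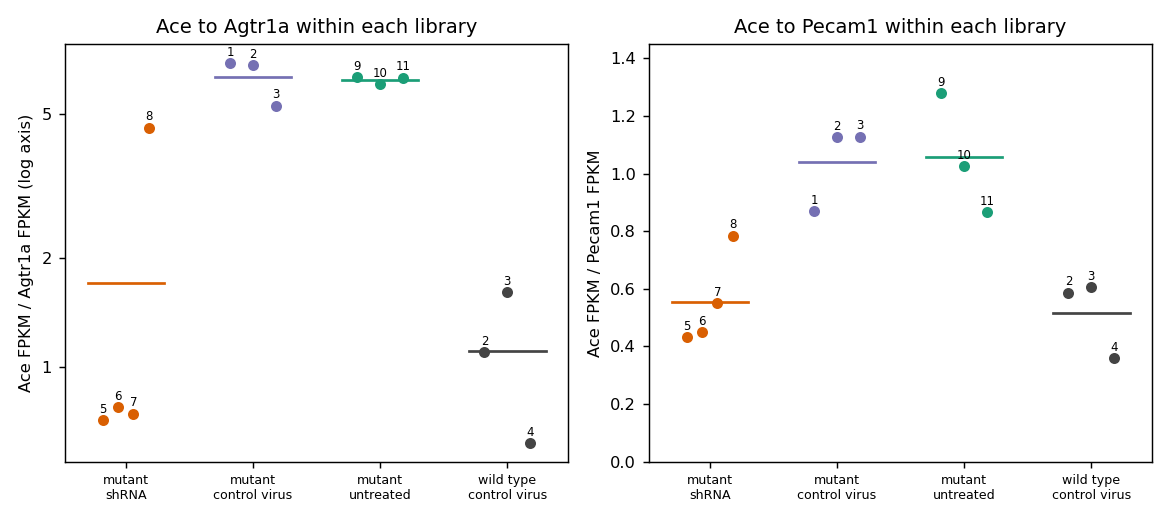
Ratio of Ace to Agtr1a FPKM (left, log axis) and of Ace to Pecam1 FPKM (right) in each of the 13 libraries, with replicate numbers and group means as bars. The left ratio is 5.27 to 6.91 in the mutants without shRNA, 0.618 to 1.61 in wild type and 0.713 to 0.773 in shRNA replicates 5 to 7, with replicate 8 at 4.59.

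Chymase Cma1, which codes for mast cell protease 5 of the mouse, was the member that set shRNA hearts apart from all other groups as deposited, but not aligned. Cma1 was 4.70, 3.74, 6.24 and 4.53 FPKM in shRNA replicates 5 to 8, against 1.70, 0.464 and 1.58 FPKM in control virus mutants. It was 0.956, 0.736 and 2.27 FPKM in untreated mutants and 0.806, 0.465 and 0.538 FPKM in wild type. As deposited, every shRNA library, replicate 8 included, lay above every other library; aligned, untreated mutant 11 at 3.14 FPKM lay above shRNA replicates 6 and 8, both at 2.61.

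Cma1 rose 2.65-fold in shRNA hearts against control virus mutants (adjusted p = 0.00223, aligned 2.01-fold, 0.0454). Against untreated mutants it rose 2.57-fold (adjusted p = 0.00124), and aligned it did not pass (1.81-fold, 0.0709). Against wild type it rose 3.59-fold (adjusted p = 0.0144), which did not pass aligned (2.93-fold, 0.0870) or when shRNA replicate 6 or any 1 wild-type library was left out (0.0551 to 0.106). Between control virus mutants and wild type it did not pass (log2 difference 0.44, SE 0.31, adjusted p = 0.409), nor between untreated mutants and wild type (0.48, SE 0.31, adjusted p = 0.289). The groups other than shRNA overlapped, in the order 1.32 ± 0.83 for untreated mutants, 1.25 ± 0.680 for control virus mutants and 0.603 ± 0.179 FPKM for wild type (SD, n = 3 each).

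Other mast cell genes were read beside Cma1. Mcpt4, the mouse chymase closest in activity to human chymase, was 6.34, 14.2, 10.4 and 3.03 FPKM in shRNA replicates 5 to 8, against 3.62, 0.776 and 2.78 in control virus mutants. It was 1.92, 0.657 and 2.78 FPKM in untreated mutants and 1.79, 0.778 and 1.20 in wild type. For Mcpt4, as deposited, shRNA replicate 8 lay below control virus mutant 1, whereas for Cma1 on the same scale it lay above every library of the other groups. Of the 20 mast cell markers 8 were tested, and 4 of them rose between shRNA and control virus (Gata2 1.84-fold, Tpsb2 2.27-fold, Mcpt4 2.69-fold and Kit 1.59-fold), where 33.4% of all genes were higher. Aligned 0 of them rose by limma, and 3 did without replicate 8, where 24.2% of all genes were higher. Against untreated mutants 5 rose, close to the 53.6% of all genes that were higher, with Gata2 2.54-fold, Cpa3 2.66-fold, Kit 2.01-fold and Mcpt4 3.21-fold at the smallest p, and aligned 1, Gata2. Gata2, a transcription factor that endothelial cells express too, fell 2.21-fold in untreated mutants against wild type (adjusted p = 0.00472, aligned 1.75-fold, 0.0121). The markers summed to 32.7 to 64.0 FPKM in shRNA hearts, 21.4 to 28.5 in control virus mutants, 14.9 to 20.0 in untreated mutants and 23.5 to 28.3 in wild type, and aligned to 27.2 to 44.6, 22.4 to 32.5, 17.9 to 27.7 and 25.1 to 26.4. Gata2 weighs heavily in these sums, at 15.0 to 17.8 FPKM as deposited in wild type and 6.14 to 7.27 in untreated mutants. By contrast Cpa3, Mcpt4 and Tpsb2 averaged 0.562, 1.26 and 0.848 FPKM in wild type and 0.588, 1.78 and 1.51 in untreated mutants. Of the defining markers, the receptor genes Ms4a2 and Fcer1a were listed at 0 in all wild-type libraries, and Mcpt1 and Mcpt9 in all 13. The part of mast cell number in Cma1 was not tested.

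**Figure D4:**
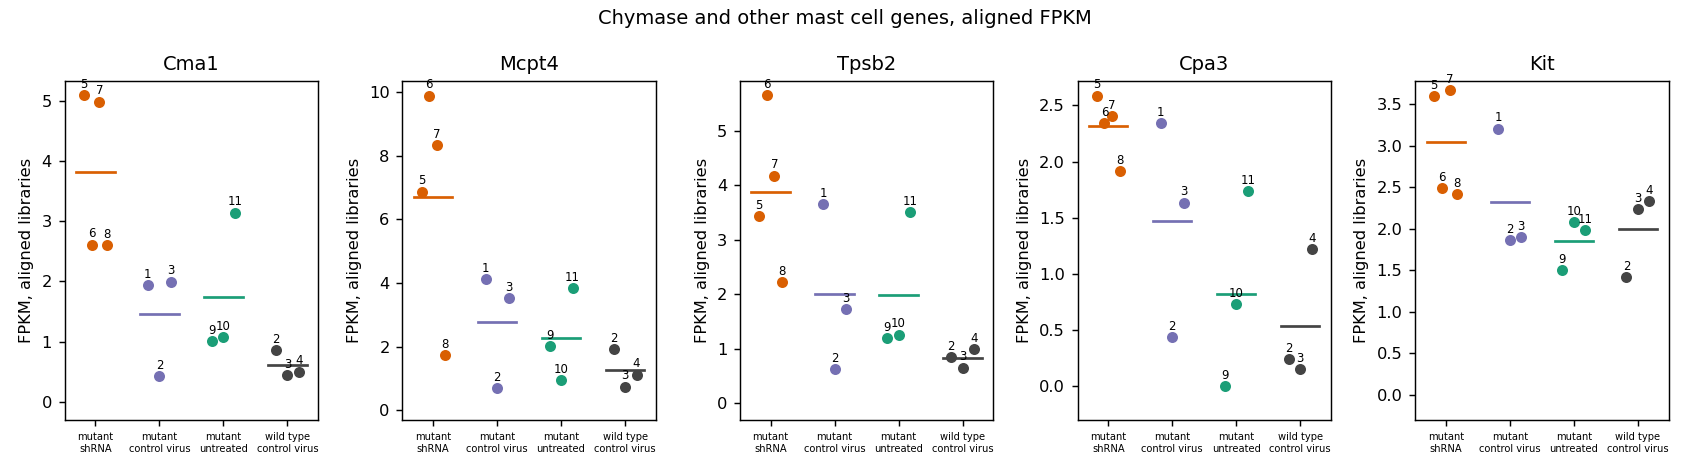
Aligned FPKM of Cma1 and of the mast cell genes Mcpt4, Tpsb2, Cpa3 and Kit in each of the 13 libraries, with replicate numbers and group means as bars. Within the mutants without shRNA, the libraries with more Cma1 (control virus 1 and 3, untreated 11) also have the most Tpsb2, at 1.74 to 3.65 FPKM, and the most Cpa3, at 1.63 to 2.34 FPKM.

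The type 1 receptor Agtr1a was high in shRNA hearts and wild type and low in the other mutants. Agtr1a was 58.6, 84.0, 85.1 and 29.2 FPKM in shRNA replicates 5 to 8, against 9.62, 12.4 and 11.2 FPKM in control virus mutants. It was 14.9, 9.58 and 9.71 FPKM in untreated mutants and 44.0, 36.2 and 56.2 FPKM in wild type. The mutants without shRNA did not overlap with any other library, shRNA replicates 5 to 7 lay above wild type, and replicate 8 lay between wild type and the mutants. Aligned, replicate 8 was 16.8 FPKM against 11.0 to 14.2 in control virus mutants and 13.4 to 15.7 in untreated mutants, while replicates 5 to 7 were 58.6 to 68.0 and wild type 34.6 to 52.6.

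Agtr1a rose 5.01-fold in shRNA hearts against control virus mutants (adjusted p = 0.000436, aligned 3.57-fold, 0.0134) and 4.95-fold against untreated mutants (adjusted p = 7.66e-05, aligned 3.04-fold, 0.0116). It fell 3.81-fold in control virus mutants against wild type (adjusted p = 0.00453, aligned 3.45-fold, 0.0139) and 3.76-fold in untreated mutants (adjusted p = 0.00174, aligned 2.94-fold, 0.0199). Between shRNA hearts and wild type the log2 difference was 0.40 (SE 0.31, adjusted p = 0.422), and 0.05 aligned (SE 0.37, adjusted p = 0.975). Between control virus and untreated mutants it was -0.02 (SE 0.33, adjusted p = 0.988). The order was shRNA 64.2 ± 26.3, wild type 45.5 ± 10.1, untreated mutants 11.4 ± 3.04 and control virus mutants 11.1 ± 1.39 FPKM (SD, n = 4, 3, 3 and 3), in which the first 2 and the last 2 overlapped. Within sex, the 2 male untreated mutants had 14.9 and 9.58 FPKM against 44.0 and 36.2 in the 2 male wild types, and the female ones 9.71 against 56.2. Among females, shRNA replicate 8 had 29.2 FPKM against 9.62 to 12.4 in the 3 control virus mutants.

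The 3 genes most like Agtr1a by Pearson correlation of aligned log2(FPKM + 1) over the 13 libraries were Idh2 (r = 0.990), a mitochondrial enzyme, Pitpnc1 (r = 0.987), a lipid transfer protein gene, and Sord (r = 0.986), for sorbitol dehydrogenase. Libraries of a group share their condition, and these are descriptions with no test. Idh2 averaged 3842 FPKM in shRNA hearts, 789.9 in control virus mutants, 641.2 in untreated mutants and 2711 in wild type. The cardiomyocyte markers, aligned, summed to 45843 to 97433 FPKM in shRNA hearts, 48727 to 53645 in control virus mutants, 48623 to 50840 in untreated mutants and 70019 to 70736 in wild type. They moved the way of Agtr1a in these sums, but most of the 10 did not pass by gene. Aligned, 3 rose and 0 fell in shRNA hearts against control virus mutants, where 11.9% of all genes were higher. Against wild type, aligned, 2 fell and 0 rose in each mutant group without shRNA, where 11.7% (control virus) and 13.8% (untreated) of all genes were lower. Agtr1a per Abcc9, a gene of the pericyte and smooth muscle list, averaged 0.327 ± 0.0188 in shRNA hearts, 0.360 ± 0.0520 in control virus mutants, 0.401 ± 0.0745 in untreated mutants and 0.436 ± 0.0900 in wild type (SD). Of the 12 genes of that list, aligned, 5 rose and 4 fell in shRNA hearts against control virus mutants, where 11.9% of all genes were higher and 12.2% lower. Their aligned sums were 405 to 826 FPKM in shRNA hearts, 920 to 1094 in control virus mutants, 649 to 1086 in untreated mutants and 418 to 574 in wild type. By these sums the mutants without shRNA lay above wild type, unlike for Agtr1a, so Abcc9 does not stand for the list. The part of these cells in the Agtr1a values was not tested. Among the members, Agtr1a correlated with Agt at r = 0.869, with Agtrap at r = 0.850 and with Ace at r = -0.882, and Cma1 with Agtr1a at r = 0.277.

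The type 2 receptor Agtr2 was listed at 0 in all 13 libraries, and the second mouse type 1 receptor, Agtr1b, in 12, with 0.0334 FPKM in untreated mutant 11. Mas1 was low but present in every library. It was 1.02, 1.12, 1.05 and 1.58 FPKM in shRNA replicates 5 to 8, against 0.320, 0.346 and 0.390 FPKM in control virus mutants. It was 0.785, 0.438 and 0.286 FPKM in untreated mutants and 1.46, 0.874 and 1.73 FPKM in wild type. As deposited, every mutant without shRNA lay below every shRNA and wild-type library, while shRNA and wild-type libraries overlapped. Aligned, shRNA replicate 6 at 0.784 FPKM lay below untreated mutant 9, at 0.83 FPKM. By mean the order was shRNA 1.19 ± 0.262 below wild type 1.35 ± 0.435, and control virus mutants 0.352 ± 0.0351 below untreated mutants 0.503 ± 0.256 FPKM (SD, n = 4, 3, 3 and 3), with overlap in each of these pairs.

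Mas1 had a mean under 1 FPKM, so it was tested without the filter, over 18552 genes. It rose 1.61-fold in shRNA hearts against control virus mutants (adjusted p = 0.00817; 23.6% of genes passed; aligned 1.37-fold, 0.0453; 14.0%). It fell 1.72-fold in control virus mutants (adjusted p = 0.030; 4.29%; aligned 1.66-fold, 0.0150; 14.1%) and 1.56-fold in untreated mutants (adjusted p = 0.0232; 12.9%; aligned 1.43-fold, 0.0370; 14.6%) against wild type. In shRNA hearts against untreated mutants it rose 1.47-fold (adjusted p = 0.0137; 37.4%) but did not pass aligned (1.18-fold, 0.228; 18.0%). The estimated fragments were 8 to 14 in shRNA hearts, 4 to 11 in control virus mutants, 8 to 11 in untreated mutants and 10 to 24 in wild type.

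Agtrap, whose protein binds the type 1 receptor, was highest in shRNA hearts and lowest in untreated mutants. Agtrap was 46.8, 79.2, 46.6 and 60.9 FPKM in shRNA replicates 5 to 8, against 23.6, 31.8 and 24.0 FPKM in control virus mutants. It was 24.7, 17.9 and 18.2 FPKM in untreated mutants and 31.5, 37.8 and 52.3 FPKM in wild type. All shRNA libraries, replicate 8 included, lay above all other mutants, and wild type overlapped with both shRNA hearts and control virus mutants. Agtrap rose 2.13-fold in shRNA hearts against control virus mutants (adjusted p = 0.00346, aligned 1.51-fold, 0.0264) and 2.75-fold against untreated mutants (adjusted p = 0.00021, aligned 1.67-fold, 0.00974). It fell 1.93-fold in untreated mutants against wild type (adjusted p = 0.0169, aligned 1.50-fold, 0.0319), a call lost when untreated mutant 10 or 11 or wild-type 3 or 4 was left out (0.0515 to 0.111). In control virus mutants it did not pass (log2 difference -0.58, SE 0.26, adjusted p = 0.174). By mean the order was shRNA 58.4 ± 15.4, wild type 40.5 ± 10.6, control virus mutants 26.5 ± 4.65 and untreated mutants 20.3 ± 3.84 FPKM (SD, n = 4, 3, 3 and 3), and each pair of neighbours overlapped. The ratio of Agtr1a to Agtrap FPKM was 1.15 ± 0.554 in shRNA hearts, 0.422 ± 0.0412 in control virus mutants, 0.557 ± 0.0401 in untreated mutants and 1.14 ± 0.226 in wild type (SD, n = 4, 3, 3 and 3), a description with no test.

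Among 22 other renin-angiotensin genes, 16 were tested. Between shRNA and control virus 6 rose and 0 fell, with a list median of 0.46 against 0.47 for all genes on the log2 scale, where 33.4% of all genes were higher, a share near that of the list. Among them were Mme (3.83-fold), the neprilysin that degrades angiotensins and natriuretic peptides, Mcpt4 (2.69-fold) and Enpep (1.70-fold), an aminopeptidase that trims angiotensin II. Aligned, 2 rose, Mme among them at 3.09-fold, and 4 fell. Mme fell 3.69-fold in control virus mutants against wild type (adjusted p = 0.0133) and was 6.63, 10.5, 8.98 and 1.47 FPKM in shRNA replicates 5 to 8, against 0.744, 1.16 and 0.495 in control virus mutants, 2.33, 1.58 and 1.09 in untreated mutants and 5.67, 5.03 and 6.06 in wild type, so replicate 8 lay near the mutants. In untreated mutants Enpep and Mme fell 1.73-fold and 2.51-fold against wild type, and aligned neither passed (adjusted p = 0.130 and 0.0965) while 1 gene, Atp6ap2, rose. In shRNA hearts against untreated mutants 10 genes rose, where 53.6% of all genes were higher, with Enpep 2.11-fold, Cpa3 2.66-fold, Mcpt4 3.21-fold and Nln 1.74-fold at the smallest p; aligned 0 rose and 1 fell. By limma 0 passed between control virus and untreated mutants, as deposited or aligned, with or without replicate 8. Between shRNA hearts and wild type 0 passed as deposited or aligned, and 1, Mcpt4, rose aligned without replicate 8. Renin itself, Ren1, was listed at 0 in every library but wild-type replicate 3, at 0.165 FPKM.

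Of 28 genes listed for the coupling of angiotensin receptors, all tested, 3 rose and 0 fell between shRNA and control virus: Rgs5 (2.37-fold) and Rgs4 (1.95-fold), which turn off G protein signals, and Gna12 (1.73-fold), the alpha subunit of G12. Of all genes 33.4% were higher, and the direction of the list turned with the scale: aligned 1 rose, Rgs5, and 4 fell, and without replicate 8 as well 3 rose and 10 fell. Rgs5, Rgs4 and Gna12 fell in control virus mutants against wild type (1.78-fold, 1.78-fold and 1.77-fold), where 7.35% of genes were lower, and aligned these 3 still fell but 5 others rose. In untreated mutants Gna12 and Rgs4 fell (2.27-fold and 1.72-fold), where 19.2% of genes were lower, while aligned 9 rose and 1 fell, Gna12 (1.75-fold), and Rgs4 no longer passed (adjusted p = 0.129). In shRNA hearts against untreated mutants 11 rose, where 53.6% of genes were higher, led by Gna12 (2.22-fold), Rgs2 (2.39-fold), Rgs5 (1.99-fold) and Cyba (2.28-fold), but the list median of 0.38 was below that of all genes, 0.66, and aligned 1 rose and 8 fell. Of 8 kinin and aldosterone genes 2 were tested, and Nr3c2, the mineralocorticoid receptor through which aldosterone acts, rose 2.67-fold in shRNA hearts against control virus mutants (aligned 1.95-fold, adjusted p = 0.0326). Against untreated mutants Nr3c2 rose 2.69-fold and Sgk1, a kinase gene that aldosterone induces, 1.96-fold, but aligned neither passed (adjusted p = 0.0561 for Nr3c2 and 0.415 for Sgk1). Nr3c2 fell 2.76-fold in control virus mutants (aligned 2.52-fold, adjusted p = 0.0145) and 2.78-fold in untreated mutants (aligned 2.23-fold, adjusted p = 0.0214) against wild type. It was 14.5, 19.0, 16.8 and 8.52 FPKM in shRNA replicates 5 to 8, against 4.29, 4.62 and 5.13 in control virus mutants, 5.88, 4.03 and 4.16 in untreated mutants and 15.0, 15.4 and 13.7 in wild type.

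The genes most like the other members by the same measure were Polr3e (r = 0.956), Des (r = 0.955) and Cars (r = 0.951) for Ace, Epb4.1l3 (r = 0.968), Ttll1 (r = 0.966) and Rnf114 (r = 0.965) for Agt, and BC004004 (r = 0.956), Kcnj8 (r = 0.956) and Ifngr2 (r = 0.954) for Agtrap. Des codes for desmin, the muscle intermediate filament, and Kcnj8 for a pore of the ATP-sensitive potassium channel. Cma1 was most like the mast cell genes Tpsb2 (r = 0.873) and Mcpt4 (r = 0.861), followed by Cdh2 (r = 0.860), the cadherin of the intercalated disc. As with Agtr1a, these are descriptions over 13 libraries that fall into 4 groups.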

How the data were processed

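PolyA RNA of 13 hearts was sequenced with 100-base paired reads, per the labels' protocols. The authors deposited 1 table of FPKM values, with a column per library; per the submitters' processing notes, FastQC 0.11.2, STAR 2.40, Cufflinks 2.2.1 and Cuffdiff were used with build mm9. No source used here gives the annotation, the read numbers or how libraries were scaled, so depth is known only as a relative step between libraries and a listed 0 may be a failed estimate.

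The 12980 genes averaging 1 FPKM or more were tested on log2(FPKM + 1) by limma 3.58.1 in R 4.3.3, as 1 fit of the 4 groups with a trended prior, two-sided, adjusted by Benjamini-Hochberg within each of 6 comparisons. Run on simulated data, the test found few of the 2-fold changes set there, so a difference that did not pass may still be present. Alignment subtracts each library's median log2 shift over genes above 0 in every library. Sex was called male where Ddx3y exceeded 5 FPKM. The members and gene lists were chosen with earlier results of these data known. Named genes are all members, the up to 4 genes of each pathway list and the mast cell list with the smallest p among those that passed, and the 3 genes most like each tested member. One gene that this rule would name is not reported here. Alternatives were quantile normalization, other pseudocounts and filters, robust eBayes, a fit of only the 2 groups in question, sex as a covariate, a replicate block and leaving out each library. The small RNA table holds no member and was not used. Promoters are RefSeq windows on GRCm38.p6, another build than the authors'.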

Additional observations from a re-analysis of the deposited data

Results flagged for a closer look

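In the shRNA group, 1 library lay farther from the others than the spread of 4 samples usually allows for 2 of the 15 measures checked. For a single measure, chance gives about 1 in 20. Agtr2, at 0 throughout, could not be flagged. The measures share genes, and both flagged ones hold Ace, so they are not independent. Aligned Ace was 77.3 FPKM in shRNA replicate 8, while replicates 5 to 7 were between 45.3 and 50.5 FPKM. The ratio of Ace to Agtr1a was 4.59 in replicate 8 and 0.713 to 0.773 in replicates 5 to 7. The same library stood apart by Six3 and by the hMyl2 row, and it was the only female of its group. The part of sex or of the label in these values was not tested.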

How the results depend on the processing

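Of 420 values of single members under alternatives, 365 kept their direction and side of the threshold, 14 no longer passed, 27 newly passed and 14 changed sign, all of Ace, 13 of them from log2 differences of 0.00, where a change of sign says nothing of stability. Between shRNA and control virus, Ace was -0.51 aligned, -0.56 with quantile normalization, -0.0013 at pseudocount 0.1, -0.31 to 0.24 with 1 library left out, -0.68 aligned without shRNA replicate 8 and -1.09 with sex as well. Against untreated mutants it was 0.014 with sex and up to 0.24 with 1 library left out, and against wild type -0.088 aligned with sex without replicate 8. The cause was not tested.

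Members passing between shRNA and control virus, and between shRNA and untreated mutants, numbered 2 at a mean of at least 5 FPKM, since Agt and Cma1 were then not tested, and 4 with any 1 library left out. Of all genes, 4144 and 6402 of 10288 passed at that mean. With 1 library left out, 2055 to 7164 and 4686 to 9067 of 12980 genes passed. Between control virus mutants and wild type 2 passed aligned, with quantile normalization, with no filter, with the 2 groups alone and, chosen after seeing the data, with shRNA replicate 8 left out of the shared spread, 4 aligned without that library and 3 with sex as well. Of 12980 genes, 3150 passed aligned, 3386 with quantile normalization, 3597 with the 2 groups alone and 2755 without replicate 8 in the spread. With no filter 796 of 18552 genes passed, against 5146 of 12980 aligned without that library and 3588 with sex as well. Between untreated mutants and wild type 4 passed with the 2 groups alone and aligned without replicate 8, with or without sex, and 1 to 2 with 1 library left out. Of 12980 genes, 5134 passed with the 2 groups alone, 5157 aligned without replicate 8 and 5249 with sex as well. With 1 library left out, 1070 to 3262 genes passed. Between shRNA hearts and wild type 0 passed aligned, with quantile normalization or with the 2 groups alone, 2 aligned without replicate 8, with or without sex, and 0 to 2 with 1 library left out. Of 12980 genes, 11 passed aligned, 13 with quantile normalization and 0 with the 2 groups alone. Aligned without replicate 8, 735 genes passed, and 695 with sex as well, against 0 to 256 with 1 library left out. At a mean of at least 5 FPKM 0 members and 9 of 10288 genes passed, but Cma1, which passed as deposited, was then not tested.

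With the replicate block, control virus mutants against wild type gave 1 member (Agtr1a, -1.93, limma adjusted p = 0.0111) and 683 genes, against 1233 without it, 3150 aligned and 126 with sex. Same-numbered libraries deviated with r = -0.196 and -0.107, so the numbers were not taken as pairs.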
